A study of Mus musculus with 37 samples.

Results

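The comparison described here asks in which genes lifelong overexpression of the glucocorticoid receptor (GRov) was accompanied by a different change in the hippocampal dentate gyrus (DG) than in the nucleus accumbens (NAcc) of the same mice. The animals were chosen by their labels: 6 mice labelled lifetime GRov (numbers 7 to 12) and 6 mice labelled No-GRov (numbers 14 to 19), each with 1 DG and 1 NAcc array. This used 24 of the 37 arrays of the series. For each gene the NAcc value was subtracted from the DG value of the same animal, and the lifetime animals were compared with the control animals.

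All 12 mice were adult male C57BL/6J animals left undisturbed in the morning, and the tissue was collected by laser capture from coronal cryosections. RNA passed through 2 rounds of linear amplification before labelling with biotin and array hybridization. The series also holds mice that overexpressed the receptor in early life, used below in 1 further contrast. The series title places the overexpression in the forebrain; the labels used here name neither the promoter that drives it, nor the age in days, nor litter or hybridization batch. Because each value comes from captured tissue, fewer cells of a type and less RNA per cell cannot be told apart. No label states that the mice came from separate litters, so the p-values measure only the spread between these animals.

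The glucocorticoid receptor, encoded by Nr3c1, is a transcription factor that binds corticosterone, moves to the nucleus and raises or lowers transcription at response elements in DNA. Granule cells of the DG carry this receptor together with the mineralocorticoid receptor and receive the main cortical input to the hippocampus. The NAcc consists mostly of GABAergic medium spiny neurons that receive dopamine and take part in motivated behaviour.

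Nr3c1 was measured first. In DG its log2 level was 7.94, 8.14 and 8.25 (lowest, median and highest control array) and 8.14, 8.36 and 8.65 in lifetime arrays. In NAcc the values were 7.25, 7.40 and 7.66 in control and 7.33, 7.80 and 8.12 in lifetime arrays. The means were higher in lifetime animals in both regions, and the groups overlapped in both. The mean difference was 0.25 in DG (exact permutation test, two-sided p = 0.0346, n = 6 and 6) and 0.34 in NAcc (exact permutation p = 0.0216). The change did not differ detectably between regions (−0.09, exact permutation p = 0.4). In the fit over all features Nr3c1 passed in neither region (adjusted p = 0.0918 in DG and 0.59 in NAcc). Whether the array reads the transgene as well as the native transcript was not tested.

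The labelled regions could be told apart by their markers. The summed linear level of 26 granule cell markers was 21769 to 36958 in the 12 DG arrays and 2971 to 4149 in the 12 NAcc arrays. Conversely, 17 shared medium spiny neuron markers summed to 14025 to 20403 in NAcc and 5574 to 6642 in DG. The arrays appeared to have been normalized within each region, so these levels across regions carry that limit. The changes compared below do not rest on these levels. Their sizes still rest on the log2 scale of each region, whose spread is given below.

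Several arrays stood apart. The choroid plexus transcript Ttr, which encodes a thyroid hormone carrier, was at 13.1 and 12.4 on the NAcc arrays of control animals 14 and 16 and between 4.35 and 4.61 on the other 10. In DG it was highest in lifetime animal 10, at 7.59, against 4.38 to 5.65 in the other animals. The interquartile range of the DG arrays, the spread of the values on an array, had a mean of 2.71 ± 0.04 in control and 2.87 ± 0.10 in lifetime animals (SD, n = 6 and 6). These groups did not overlap (exact permutation p = 0.00216, the smallest that the possible arrangements of these animals can give). In NAcc the means were 2.33 ± 0.03 and 2.37 ± 0.09 (exact permutation p = 0.364), and the DG minus NAcc range was 0.13 wider in lifetime animals (exact permutation p = 0.0411). This wider range of the lifetime DG arrays goes along with the groups of animals compared below. Its part in each group of genes was not tested, and fits with it as a covariate are given below.

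Over 12260 features, where a feature is 1 or more RefSeq transcript accessions with identical values, the lifetime change differed between the regions for 257 (2.10%) at an adjusted p of 0.05 in limma. Of these, 179 (1.46%) had a change that was more positive in DG and 78 (0.636%) one that was more negative. The called features stood for 243 genes, with a median size of 0.69 on the log2 scale. The difference was over 1 on that scale for 45 of them, 30 positive and 15 negative. The median over all features was −0.02. These shares of all features are the background for every count of called list members below, and no list was tested as a set.

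The differences came largely from DG. Of the 257 features, 245 had a DG change larger in size than the NAcc change and 12 had the reverse. Changes were larger in DG over all features as well, with a median size of 0.15 against 0.07 in NAcc. The features with a more positive change in DG had a median change of 0.66 in DG and −0.06 in NAcc. For the more negative ones the medians were −0.50 and 0.11. The within-animal values of the groups did not overlap for 129 of the 257, and for 1.73% of all features. Taken alone, DG had 1600 changed features (13.1%), of which 676 were lower in lifetime animals (5.51% of all tested) and the rest higher (7.54%). Of these DG calls 57.8% were higher, or 74.9% after centring each array on its median, a step that moved the median of all DG changes from −0.01 to 0.03. NAcc alone had 3 (0.0245%), all higher; without lifetime animal 8 it had 44. At an unadjusted p under 0.05 these numbers were 3966 and 863. The DG count was 12 with the interquartile range of the array as a covariate. It was 925, 684, 2573 and 738 without lifetime animal 7, 9, 10 or 11, and 999, 1039 and 1038 without control animal 14, 15 or 17. The fit of DG alone and the difference share arrays: 217 of the 257 also changed in DG, and 13.6% of the features changed in DG had a called difference between regions. The other 40 passed for the difference and not for DG alone.

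**Figure D1:**
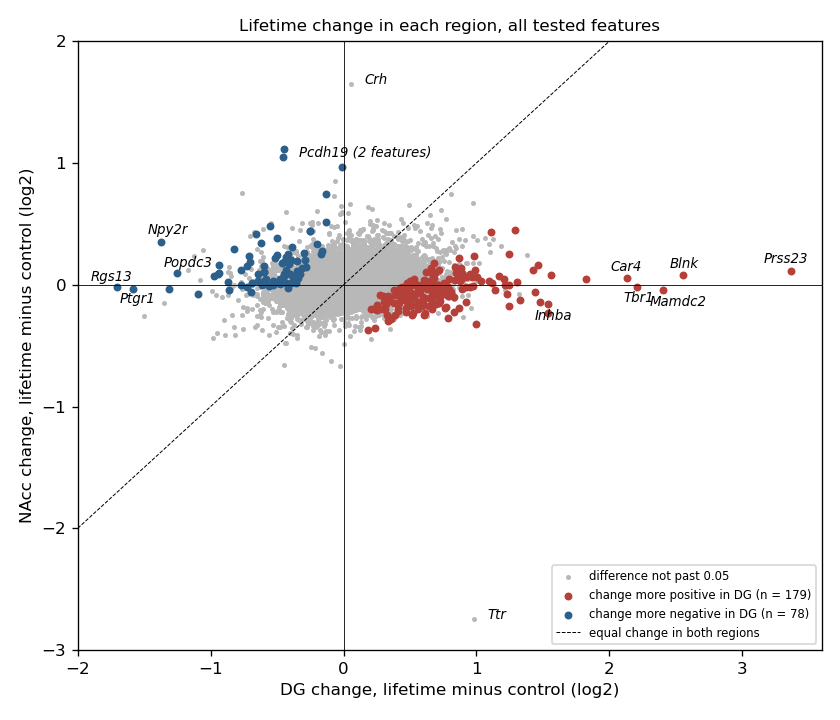
Lifetime minus control change in DG (horizontal, log2) against the same change in NAcc (vertical, log2) for 12260 features. The 179 red points had a more positive and the 78 blue points a more negative change in DG at an adjusted p of 0.05; most lie along the horizontal axis, the 2 Pcdh19 features lie high on the NAcc axis, and Crh and Ttr, which did not pass, lie at its ends.

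How many features passed depended on the animals and on the range of the arrays. Leaving out lifetime animal 10 gave 1112 calls, which held all 257. Leaving out lifetime animal 7, 8, 9 or 11 gave 98, 129, 142 and 98, and leaving out control animal 14, 15, 16 or 17 gave 134, 117, 135 and 138. With the animal's difference in interquartile range as a covariate, 33 features passed, 13 positive and 20 negative. With each array centred and scaled to 1 interquartile range 149 passed, 82 positive and 67 negative, so that 55% instead of 69.6% were positive. Without control animals 14 and 16, the animals with high NAcc Ttr, 54 passed, and without lifetime animals 8 and 10 the number was 711. The genes named below were therefore also followed singly: 36 of 69 named features with a call passed in each of the 12 fits that left out 1 animal, and 21 passed with the range covariate. These 21 features were those of Prss23, Blnk, Inhba, Mamdc2, Popdc3, Tbr1, Car4, Pcdh19 (2 features), Ptgr1, Kcnk2, Antxr2, Spata13, Fst, Doc2b, Capn3, Clmp, Npy2r, Kcnip4, Lmo1 and Rgs13. All other named genes with a call lost it with the covariate.

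**Figure D2:**
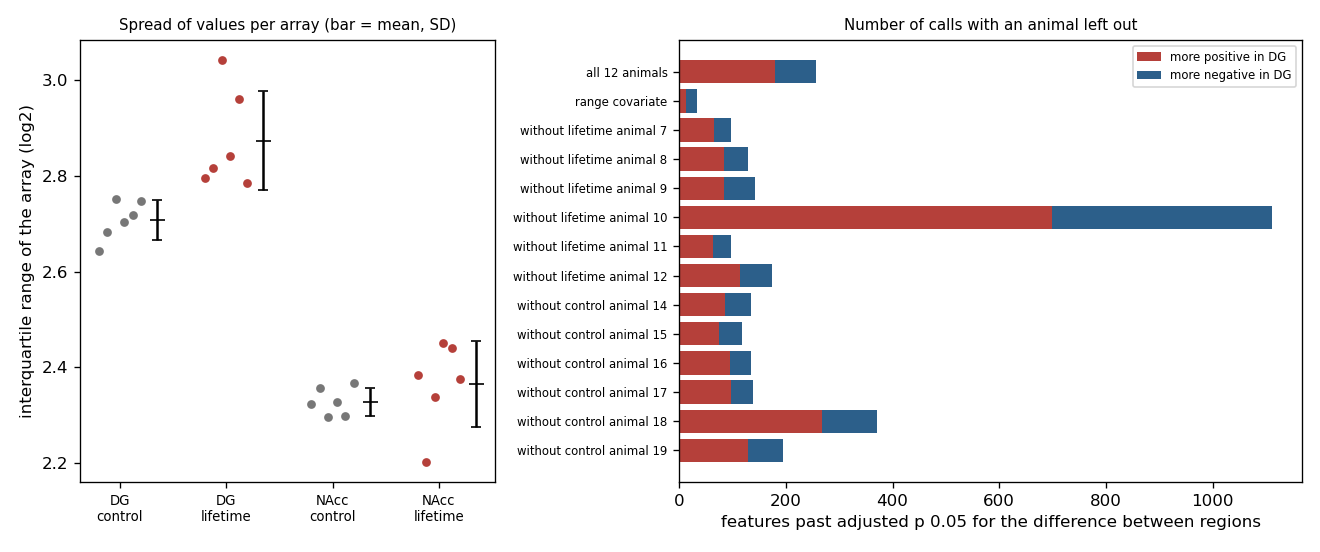
Left, interquartile range of the log2 values of each array by region and group, with the mean and SD of 6 arrays. Right, number of features past an adjusted p of 0.05 for the difference between regions with all 12 animals (257), with the range covariate (33) and with each animal left out (98 to 1112).

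Many of the genes with the largest positive differences rose in DG and stayed near the low end of the scale in NAcc. Inhba and Kcnk2, described below, were well measured in NAcc. A low, unchanged NAcc value cannot show that a gene did not respond there. Prss23, Mamdc2, Car4 and Antxr2 had control DG means of 5.45, 5.42, 6.29 and 5.94, under the filter level of 6.354 for DG. They were tested only because their lifetime DG arrays were high. Prss23, which encodes a secreted serine protease, was at 5.08, 5.40 and 5.93 (lowest, median, highest) in control DG and at 8.32, 8.82 and 9.14 in lifetime DG. In NAcc it was at 4.73, 4.81 and 5.08 in control and 4.73, 4.99 and 5.11 in lifetime animals. The DG groups lay far apart and the NAcc groups overlapped almost fully. The DG level was 10.3-fold higher in lifetime animals, and the change differed between regions by 3.25 ± 0.20 (SE, adjusted p = 2.89e-07).

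Blnk, an adaptor protein best known from B cell receptor signalling, was already well measured in control DG, at 8.35, 8.56 and 9.05. In lifetime DG it was at 10.76, 11.26 and 11.46, above every control array. Its NAcc values were 5.78 to 6.11 in control and 5.63 to 6.42 in lifetime animals, overlapping throughout. The difference between regions was 2.47 ± 0.15 (adjusted p = 2.89e-07), and Blnk rose 5.87-fold in DG. Mamdc2, a secreted protein with MAM domains, went from a DG median of 5.41 in control to 7.77 in lifetime animals and stood at NAcc medians of 4.88 and 4.84. Its difference was 2.44 ± 0.21 (adjusted p = 1.41e-05).

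Car4, a membrane-bound carbonic anhydrase, was at 5.97, 6.32 and 6.49 in control DG and 7.56, 8.59 and 8.79 in lifetime DG. Its NAcc range was 5.06 to 5.48 in control and 5.14 to 5.44 in lifetime animals. The groups were apart in DG and interleaved in NAcc, with a difference of 2.07 ± 0.19 between regions (adjusted p = 1.98e-05). Antxr2, a cell surface receptor that binds extracellular matrix, had a change that differed 2.82-fold between regions (adjusted p = 0.000571), and Capn3, a calcium-dependent protease, one that differed by 1.31 ± 0.17 on the log2 scale (adjusted p = 0.000974). Iigp1, an interferon-induced GTPase, differed by 1.45 ± 0.24 (adjusted p = 0.00662), although the within-animal values of its groups overlapped through 1 control animal at 2.56. All 7 genes rose in DG and none in NAcc, and each passed with every animal left out in turn; with the range covariate all but Iigp1 passed (adjusted p = 0.0822).

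Tbr1 joined this group among the transcription factors. It encodes a T-box factor of glutamatergic neurons that, in the adult DG, marks newly formed neurons. Its level was 7.38, 7.78 and 8.30 in control DG and 9.40, 10.11 and 10.47 in lifetime DG. In NAcc it was at 4.39 to 5.18 in control and 4.40 to 4.92 in lifetime animals, so that only the DG groups were apart. The difference was 2.22 ± 0.20 (adjusted p = 1.89e-05), a 4.61-fold rise in DG. The list median of 14 tested genes of immature neurons and neurogenesis was 0.06 against −0.02 over all features. Of these 14 genes, 2 passed, both positive (1.46% of all features). The other was Tubb3, a neuronal β-tubulin, at 0.96 ± 0.21 (adjusted p = 0.0323), which passed in 3 of the 12 fits with an animal left out.

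**Figure D3:**
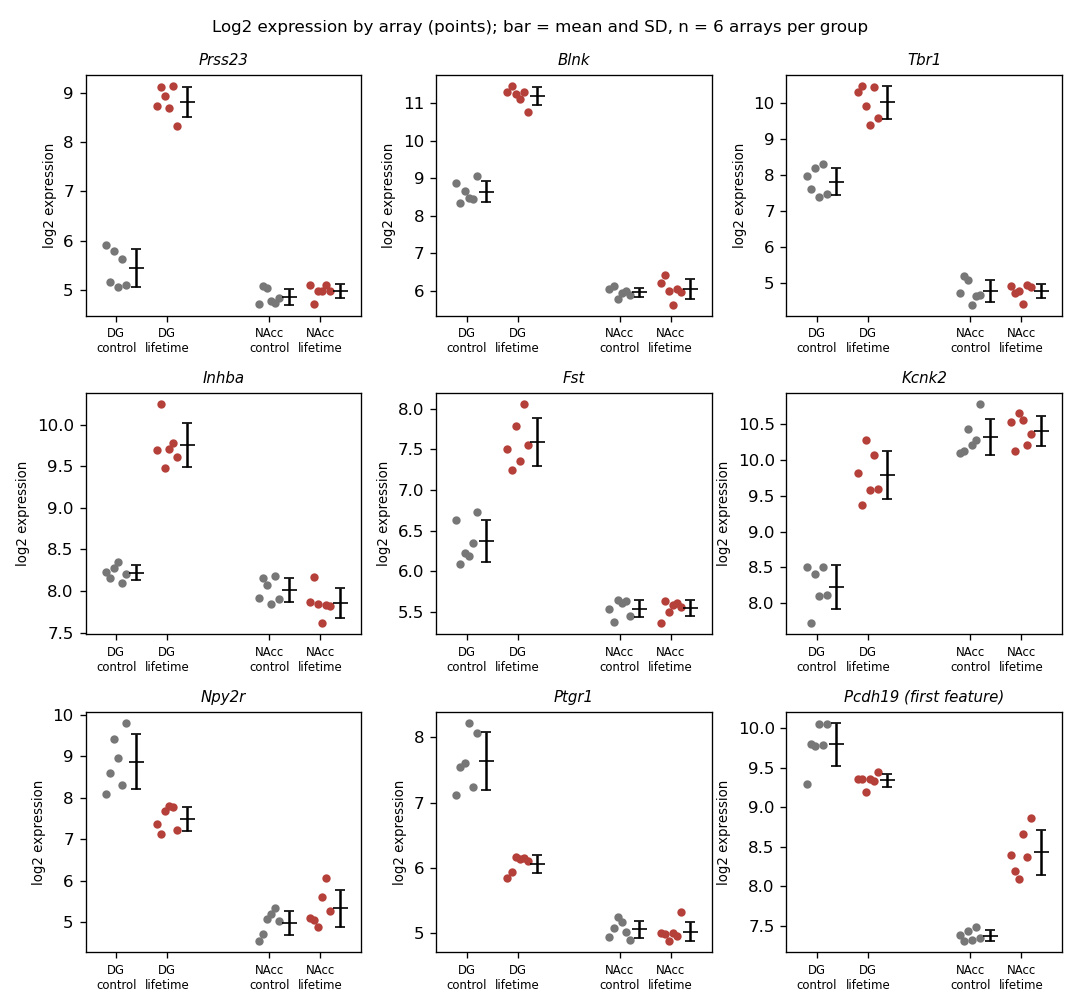
Log2 expression of 9 genes by array (points) in control (grey) and lifetime (red) animals, DG on the left and NAcc on the right of each panel, with the mean and SD of 6 arrays. Each panel has its own vertical scale, which does not start at 0; Prss23, Blnk, Tbr1, Inhba and Fst separate in DG alone, and Pcdh19 is lower in lifetime DG and higher in lifetime NAcc.

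Promoter sequence was read for the 5 genes with the smallest adjusted p that had an entry in a RefSeq promoter table (build GRCm38.p6): Prss23, Blnk, Inhba, Tbr1 and Car4. They are shown because these genes moved together in DG and the study manipulates a DNA-binding receptor. Each sequence runs 5′ to 3′ on the gene's strand from 250 bases before to 50 bases after the annotated start. The windows lie at chr7:89527138-89527437 (minus strand, the outermost of 7 annotated starts), chr19:40994172-40994471 (minus strand), chr13:16011601-16011900 (plus strand), chr2:61804203-61804502 (plus strand) and chr11:84957504-84957803 (plus strand). Capitals would mark the hexamer that forms each arm of the glucocorticoid response element, AGAACA or its reverse complement TGTTCT.
Prss23: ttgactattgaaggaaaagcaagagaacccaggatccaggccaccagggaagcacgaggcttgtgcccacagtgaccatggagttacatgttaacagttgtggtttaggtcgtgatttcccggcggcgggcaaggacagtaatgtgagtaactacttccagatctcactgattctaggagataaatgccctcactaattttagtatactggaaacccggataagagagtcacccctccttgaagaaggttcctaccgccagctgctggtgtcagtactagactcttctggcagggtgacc
Blnk: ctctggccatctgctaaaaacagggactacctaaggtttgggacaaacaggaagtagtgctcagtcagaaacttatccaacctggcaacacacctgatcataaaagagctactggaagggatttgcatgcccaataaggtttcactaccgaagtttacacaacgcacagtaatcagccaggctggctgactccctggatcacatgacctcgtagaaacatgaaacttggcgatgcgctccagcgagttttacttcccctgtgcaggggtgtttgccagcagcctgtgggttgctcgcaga
Inhba: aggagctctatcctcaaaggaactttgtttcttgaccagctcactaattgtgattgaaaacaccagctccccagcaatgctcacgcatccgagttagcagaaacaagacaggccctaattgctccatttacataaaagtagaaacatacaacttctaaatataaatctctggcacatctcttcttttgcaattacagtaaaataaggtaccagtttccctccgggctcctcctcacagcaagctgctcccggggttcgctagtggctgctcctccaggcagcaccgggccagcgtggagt
Tbr1: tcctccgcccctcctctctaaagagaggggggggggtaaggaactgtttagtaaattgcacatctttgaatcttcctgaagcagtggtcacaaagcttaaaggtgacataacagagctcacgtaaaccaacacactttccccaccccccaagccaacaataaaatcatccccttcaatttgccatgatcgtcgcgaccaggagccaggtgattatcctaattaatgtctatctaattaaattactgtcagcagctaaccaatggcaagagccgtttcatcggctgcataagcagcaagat
Car4: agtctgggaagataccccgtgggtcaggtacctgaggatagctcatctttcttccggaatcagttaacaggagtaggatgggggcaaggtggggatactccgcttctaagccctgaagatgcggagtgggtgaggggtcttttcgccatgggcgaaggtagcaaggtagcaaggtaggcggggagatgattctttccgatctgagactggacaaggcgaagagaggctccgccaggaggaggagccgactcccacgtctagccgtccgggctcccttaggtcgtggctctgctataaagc
None of the 5 windows held this hexamer, so no base is in capitals. Of 32817 promoters listed, 18.97% held one on either strand, as did 14.73% of 8783 tested genes with an entry. Among genes with a more positive change in DG the number was 20 of 137 (14.6%), and among those with a more negative change 9 of 57 (15.79%). The full palindromic element, AGAACA and TGTTCT with 3 free bases between them, contains both hexamers and was found in 3 promoters of the table (0.009%) and in none of the called genes. A missing match says only that these letters are not in this window.

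Secreted signalling factors differed between the regions in both directions. Inhba encodes the subunit that forms activin A, a TGF-β family ligand, and was at 8.10, 8.22 and 8.35 in control DG and 9.48, 9.70 and 10.25 in lifetime DG. In NAcc it was at 7.85, 7.99 and 8.19 in control and 7.61, 7.84 and 8.17 in lifetime animals. The DG groups were separated by more than the whole range of the control group, and the NAcc groups overlapped. The difference between regions was 1.69 ± 0.12 (adjusted p = 1.01e-06), with a 2.90-fold rise in DG.

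Follistatin, encoded by Fst, binds and neutralizes activin. It was at 6.09, 6.29 and 6.73 in control DG and 7.25, 7.53 and 8.06 in lifetime DG. Its NAcc range was 5.38 to 5.64 in control and 5.36 to 5.64 in lifetime animals. Ligand and inhibitor thus both rose in DG, Fst with a difference of 1.21 ± 0.16 (adjusted p = 0.000974). Tgfb2, which encodes another ligand of the family, had a difference of −0.54 ± 0.12 (adjusted p = 0.0327) and fell in DG (−0.45). Of 21 tested activin and TGF-β genes, 2 passed as more positive (1.46% of all features) and 1 as more negative (0.636%). The list median was −0.06. Inhba and Fst passed without each animal and with the range covariate; Tgfb2 passed in 4 of 12 fits.

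The chemokine gene Cxcl12, whose product guides migrating neural precursors, was at 9.32, 9.85 and 10.33 in control DG and 7.92, 8.59 and 8.92 in lifetime DG. Its NAcc medians were 7.29 and 7.10. The feature differed by −1.28 ± 0.23 between regions (adjusted p = 0.0119), while the 2 other Cxcl12 features differed by 0.03 and 0.17 (adjusted p = 0.907 and 0.667). The 3 features thus disagreed, and the DG change is that of 1 set of transcripts on the array. Ntf3, which encodes neurotrophin-3, differed by 0.63 ± 0.14 (adjusted p = 0.0293) and rose in DG (0.56). It was the only member called among 28 genes of neurotrophin and MAP kinase signalling, against 2.10% of all features. Of 12 fits with an animal left out, 5 called it.

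Among genes of axons and the cytoskeleton, Islr2, a leucine-rich repeat protein of growing axons, had the largest difference of those that passed without each animal. It was at 5.60, 6.13 and 6.52 in control DG and 6.60, 8.16 and 8.55 in lifetime DG, with NAcc medians of 5.31 and 5.45. The lowest lifetime DG array lay just above the highest control array. The control DG median and both NAcc medians of Islr2 lay under the filter levels of 6.354 and 5.75. Islr2 was thus tested only because its lifetime DG arrays were high. Its difference was 1.77 ± 0.26 (adjusted p = 0.00333; 0.0802 with the range covariate). Nefm, the medium neurofilament subunit, also differed by 1.77, but with a larger error (SE 0.35, adjusted p = 0.0204) and with lifetime animal 10 inside the control range. Cd24a, a small surface glycoprotein, differed by 1.62 ± 0.37 (adjusted p = 0.0331) and passed in 6 of 12 fits with an animal left out. Of 39 axon guidance genes tested, Ephb1, an ephrin receptor, was more positive in DG (0.54, adjusted p = 0.0483) and Ntng1, the membrane ligand netrin-G1, more negative (−0.95, adjusted p = 0.0404). Over all features these shares were 1.46% and 0.636%. Ephb1 passed in 2 of 12 fits with an animal left out.

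Ion channel genes were called in both directions. Kcnk2 encodes TREK-1, a two-pore potassium channel that carries background current. It was at 7.72, 8.26 and 8.51 in control DG and 9.37, 9.71 and 10.28 in lifetime DG. In NAcc, where its level was already high, the values were 10.11, 10.25 and 10.78 in control and 10.12, 10.45 and 10.65 in lifetime animals. The DG groups did not overlap, the NAcc groups did, and the difference was 1.48 ± 0.18 (adjusted p = 0.000571).

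Of 37 potassium channel genes tested, 2 passed as more positive, Kcnk2 and its relative Kcnk1 (0.71 ± 0.13, adjusted p = 0.0109). Kcnip4, an auxiliary subunit of A-type potassium channels, was the 1 more negative (−1.03 ± 0.16, adjusted p = 0.00372) and fell in DG from a median of 8.06 to 6.90. Over all features 1.46% were more positive and 0.636% more negative, and the list median was −0.08. Among 23 sodium and calcium channel genes, 2 passed, both pore-forming calcium channel subunits that rose in DG. Cacna1c of the L type differed by 0.75 ± 0.16 (adjusted p = 0.0263) and Cacna1h of the T type by 0.83 ± 0.19 (adjusted p = 0.035). Ryr1, a calcium release channel of the endoplasmic reticulum, differed by 1.28 ± 0.21 (adjusted p = 0.00556). All 3 named potassium channel genes and Ryr1 passed without each animal, whereas with the range covariate Kcnk1 (adjusted p = 0.0942) and Ryr1 (adjusted p = 0.101) did not pass. Cacna1c passed in 8 and Cacna1h in 3 of 12 fits with an animal left out.

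Kinase and cyclic AMP genes followed. Camk2b, the β subunit of calcium-calmodulin kinase II, had DG medians of 9.15 in control and 10.62 in lifetime animals and NAcc medians of 8.89 and 8.80. Its difference of 1.42 ± 0.30 (adjusted p = 0.0279) was the only one called among 23 kinase and postsynaptic scaffold genes, against 2.10% of all features. Camk2b passed in 3 of 12 fits with an animal left out. The groups overlapped because lifetime animal 10 stayed within the control range. Pde4b, a phosphodiesterase that degrades cyclic AMP, went from a DG median of 8.87 to 9.93 and from 10.13 to 10.24 in NAcc. It differed by 1.10 ± 0.17 (adjusted p = 0.00427) and passed without each animal, but not with the range covariate (adjusted p = 0.0822).

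Of 24 genes of dopamine and cyclic AMP signalling, 3 passed, all more positive in DG (1.46% of all features). They were Pde4b, the dopamine receptor Drd1 and the adenylyl cyclase Adcy1. Drd1 had its high level in NAcc, at medians of 10.13 in control and 10.10 in lifetime animals, and rose in DG from 6.03 to 6.83 (difference 0.85 ± 0.20, adjusted p = 0.0378). Adcy1 differed by 0.51 ± 0.11 (adjusted p = 0.0323). Drd1 passed in 3 and Adcy1 in 5 of the 12 fits with an animal left out. Jun, which encodes a subunit of the AP-1 transcription factor, was the 1 gene of 17 immediate early genes to pass (2.10% of all features). Its difference was 0.87 ± 0.19 (adjusted p = 0.0293), and it passed in 5 of 12 fits.

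**Figure D4:**
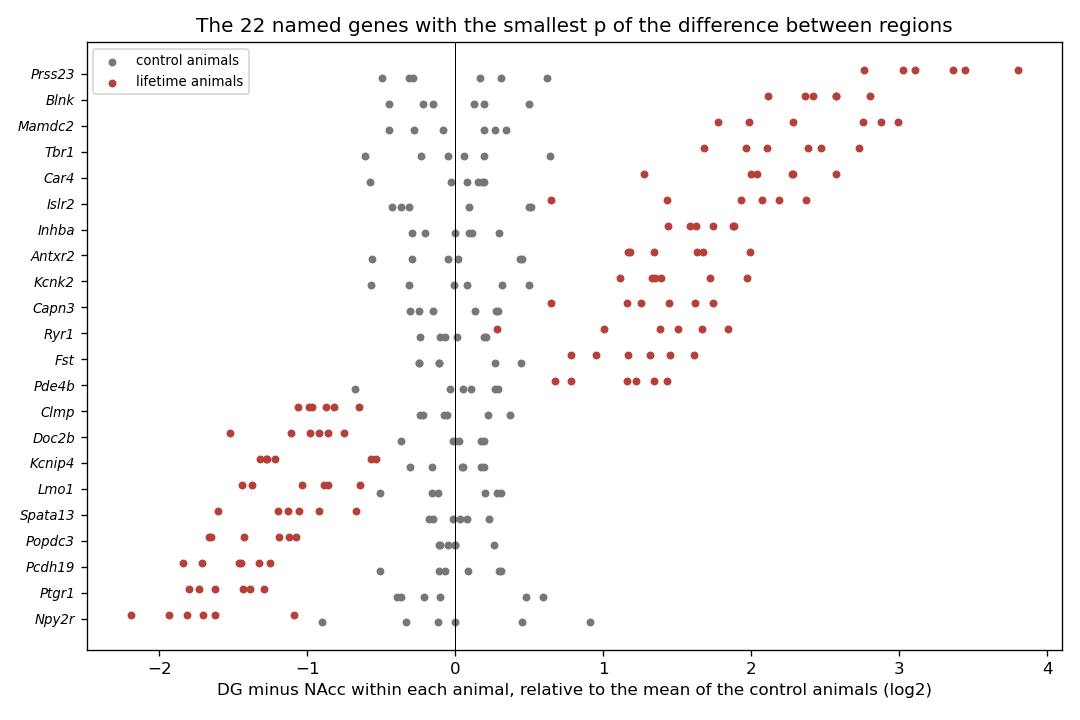
DG minus NAcc log2 value within each animal, set relative to the mean of the 6 control animals, for the 22 named genes with the smallest p (Pcdh19 by 1 feature). Grey points are control and red points lifetime animals. The 2 groups of animals do not overlap in any of these genes, which were picked by the p of this same comparison. Groups did not overlap for 1.73% of all features.

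Receptors and their regulators were called in both directions. Npy2r, the Y2 receptor for neuropeptide Y, was at 8.09, 8.79 and 9.81 in control DG and 7.12, 7.52 and 7.79 in lifetime DG. In NAcc it was at 4.54, 5.05 and 5.34 in control and 4.89, 5.20 and 6.08 in lifetime animals. All lifetime DG arrays lay below all control DG arrays, and the NAcc groups overlapped. The difference was −1.73 ± 0.25 (adjusted p = 0.0027), the largest in size of the negative ones. It was the 1 gene called among 4 genes of neuropeptide Y and its receptors, against 2.10% of all features.

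Rgs13, a GTPase-activating regulator of G protein signalling, was at 6.49, 7.24 and 7.99 in control DG and 4.45, 5.82 and 6.33 in lifetime DG. NAcc values stayed between 4.06 and 4.43 in both groups near the bottom of the scale, the lowest value on any array being 3.23. The lifetime DG arrays all lay under the filter level of 6.354 for DG, so Rgs13 was tested only because its control DG arrays were high. The difference was −1.68 ± 0.33 (adjusted p = 0.0185). Of 16 regulators of G protein signalling, 2 passed, both negative (0.636% of all features). The other was Rgs17, at −0.67 ± 0.14 (adjusted p = 0.0234). Its DG change did not itself pass (−0.42, adjusted p = 0.0559). Rgs17 passed in 9 of 12 fits with an animal left out.

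Genes of transmitter receptors likewise had calls of either sign. Gabrb2, the β2 subunit of the GABA-A receptor, was at 10.36 to 10.80 in control and 9.99 to 10.50 in lifetime DG. In NAcc the highest control array was at 9.20 and the lifetime arrays lay between 9.22 and 9.36. The DG groups overlapped through lifetime animal 10, the NAcc groups did not and lay the other way, but the NAcc change did not pass (0.18, adjusted p = 0.588). Its difference was −0.63 ± 0.11 (adjusted p = 0.00694), the 1 call among 15 GABA genes. Of 15 AMPA and kainate receptor genes, Grik3, a kainate receptor subunit, was more negative (−0.68 ± 0.13, adjusted p = 0.0157) and the auxiliary protein Neto1 more positive (0.56 ± 0.13, adjusted p = 0.0376). Neto1 passed in 4 of 12 fits with an animal left out and Grik3 in all 12. Grm2, a presynaptic metabotropic glutamate receptor, differed by 0.55 ± 0.11 (adjusted p = 0.015) and was the 1 call among 10 NMDA and metabotropic receptor genes. None of 9 serotonin and adrenergic receptor genes and none of 19 neuropeptide genes passed in limma, against 2.10% of all features.

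Pcdh19 was the 1 gene that changed in both regions with opposite signs. It encodes a protocadherin, a homophilic cell adhesion molecule of neurons, and lies on the X chromosome. By its first feature it was at 9.29, 9.79 and 10.06 in control DG and 9.19, 9.36 and 9.45 in lifetime DG. In NAcc the values were 7.30, 7.37 and 7.48 in control and 8.10, 8.38 and 8.87 in lifetime animals. The DG groups overlapped, and all lifetime NAcc arrays lay above all control NAcc arrays. The DG change was −0.46 (adjusted p = 0.02), the NAcc change 1.05 (adjusted p = 0.000766) and the difference −1.51 ± 0.14 (adjusted p = 3.42e-05). The second feature gave −0.45, 1.12 and −1.56 ± 0.15. Both features passed without each animal and with the range covariate. The 1 other feature that changed in NAcc, a transcript with no symbol in the table used, rose there by 0.97 (adjusted p = 0.00305) against −0.01 in DG.

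Other adhesion, vesicle and regulatory genes fell in DG with little change in NAcc. Popdc3, of the Popeye family of cyclic AMP-binding membrane proteins, was at 6.74, 7.05 and 7.27 in control DG and 5.36, 5.80 and 6.23 in lifetime DG. Its NAcc range was 4.87 to 5.29 in control and 5.03 to 5.32 in lifetime animals. The DG groups did not overlap, and the difference was −1.36 ± 0.12 (adjusted p = 1.89e-05). All lifetime DG arrays lay under the filter level of 6.354 for DG, so Popdc3 was tested only because its control DG arrays were high.

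Ptgr1, an enzyme that inactivates prostaglandins and leukotriene B4, was at 7.12, 7.58 and 8.23 in control DG and 5.84, 6.12 and 6.17 in lifetime DG. The NAcc medians were 5.05 and 4.99, and the difference was −1.54 ± 0.17 (adjusted p = 0.00021). Like Popdc3, Ptgr1 passed the filter only through its control DG arrays. Doc2b, a calcium sensor of vesicle release, differed by −1.02 ± 0.13 (adjusted p = 0.000974). Spata13, a guanine nucleotide exchange factor, differed by −1.10 ± 0.14 (adjusted p = 0.000571). Lmo1, a LIM-domain transcriptional regulator, differed by −1.04 ± 0.16 (adjusted p = 0.00459), and Clmp, an immunoglobulin-type adhesion molecule, by −0.89 ± 0.12 (adjusted p = 0.0011). All 6 genes fell in DG, and all 6 passed without each animal and with the range covariate.

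For Bend5, Adgra1, Olfm3 and Ntng1 the difference passed but the DG change alone did not (adjusted p = 0.0536, 0.0965, 0.0965 and 0.0505). Their NAcc estimates were 0.29, 0.42, 0.34 and 0.24, in the opposite direction to DG and likewise not past the threshold. Brinp3 fell in DG (−0.55, adjusted p = 0.046) with an NAcc estimate of 0.48 (adjusted p = 0.686). Brinp3 passed without each animal, Olfm3 in 9, Bend5 and Adgra1 in 4 and Ntng1 in 3 of 12 fits. None of the 5 passed with the range covariate (adjusted p = 0.0906 to 0.333).

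Genes that glucocorticoids are known to induce gave no call for the difference between regions. Of 22 tested, none passed in limma, with 14 estimates above and 8 below 0 and a median of 0.11. Over all features 2.10% passed, so no call among 22 genes is near that share. Errfi1, a feedback inhibitor of the epidermal growth factor receptor, had the smallest p of the list (difference 0.31, adjusted p = 0.0645). Fkbp5, a co-chaperone of the receptor, had a difference of −0.10 (adjusted p = 0.668), Tsc22d3 (GILZ) −0.29 (adjusted p = 0.281) and the kinase Sgk1 0.26 (adjusted p = 0.416). In DG alone 6 of the 22 rose and 1 fell, against 7.54% and 5.51% of all features, and in NAcc none changed (0.0245% of all). Of 14 corticosteroid receptors and chaperones 1 passed, the heat shock protein Hspa1a (0.63, adjusted p = 0.0279), which has a near-identical copy in Hspa1b (0.50, adjusted p = 0.159). None of 4 genes of the CRH system passed; Crhbp, the binding protein for corticotropin-releasing hormone, had −1.01 ± 0.31 (adjusted p = 0.0891). Crh, the hormone gene itself, had the highest NAcc estimate of all features (1.65), with an adjusted p of 0.566 in NAcc.

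Of 25 ribosomal protein genes tested, 5 passed, all more positive in DG (1.46% of all features), with a list median of 0.23 against −0.02 over all features: Rpl8 (0.68), Rpl37a (0.60), Rpl22 (0.51), Rps21 (0.49) and Rps14. Rps21 was at 12.34, 12.54 and 12.60 in control DG and 12.64, 12.79 and 13.07 in lifetime DG, and at 12.72, 12.98 and 13.15 in control and 12.65, 12.80 and 12.85 in lifetime NAcc. The estimates in the 2 regions thus had opposite signs, 0.29 in DG and −0.20 in NAcc (difference 0.49 ± 0.09, adjusted p = 0.0116). Of the named 4, Rps21 alone passed without each animal (Rpl8 in 3, Rpl37a in 4 and Rpl22 in 2 of 12 fits), and its adjusted p was 0.0506 after quantile normalization. Ribosomal protein genes have many processed copies in the genome, which array probes may not tell apart. Of 65 oxidative phosphorylation genes 2 passed, both more positive in DG (1.46% of all features), among them Ndufa8 (0.53), a subunit of complex I. Ndufa8 passed in 2 of 12 fits with an animal left out, and its limma adjusted p was 0.0715 after quantile normalization.

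Cell type markers were examined beside these groups. Of 24 granule cell markers, 3 were more positive in DG, Prdm8 (1.31), Tdo2 (1.18) and Il16 (0.68), and 1 was more negative, Ntng1. Over all features these shares were 1.46% and 0.636%. In DG alone 10 of the 24 rose and none fell, against 7.54% and 5.51% of all features. Prdm8 passed in 5, Tdo2 in 3 and Il16 in 3 of 12 fits with an animal left out, and after quantile normalization the adjusted p was 0.0585 for Prdm8 and 0.0556 for Tdo2. The summed level of the list was 21769, 26919 and 36958 in control and 28036, 33451 and 36229 in lifetime DG. The ranges overlapped, and the part of granule cell content in the other differences was not tested. One of 13 pyramidal and mossy cell markers passed, Crym, which binds thyroid hormone (1.25 ± 0.21, adjusted p = 0.00688).

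None of 17 shared medium spiny neuron markers, 14 interneuron markers, 19 astrocyte markers, 17 oligodendrocyte markers, 6 oligodendrocyte precursor markers, 13 endothelial and pericyte markers, 7 meninges markers and 2 cholinergic markers passed in limma. Over all features 2.10% passed, so no call in lists of these sizes is near that share. Markers of medium spiny neuron subtypes did hold calls. Drd1 was the 1 called of 6 direct-pathway markers, more positive in DG. Grik3 was the 1 called of 3 indirect-pathway markers, more negative in DG. The medians of the oligodendrocyte and astrocyte lists were −0.34 and −0.21, and 14 of 17 and 16 of 19 members lay below 0. The summed oligodendrocyte level was 12925 to 22997 in control and 8685 to 22454 in lifetime DG, and 14479 to 19146 and 11804 to 19483 in NAcc. All 13 endothelial and all 7 meninges estimates were below 0 as well. One microglial marker of 13 passed, the purine receptor P2ry12 (−0.54, adjusted p = 0.0323), which fell in DG (−0.35). P2ry12 passed in 4 of 12 fits with an animal left out, and its limma adjusted p was 0.108 after quantile normalization. Of 3 choroid plexus and ependyma markers tested Clic6, a chloride channel protein, passed (−0.69, adjusted p = 0.0176). Neither its DG change (−0.25) nor its NAcc change (0.44) passed alone, and its DG mean lay under the filter level. Clic6 was higher in every lifetime NAcc array (7.40 to 7.84) than in control NAcc arrays (6.82 to 7.35), although Ttr was high in 2 of the latter. Without control animals 14 and 16 its adjusted p was 0.0501.

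**Figure D5:**
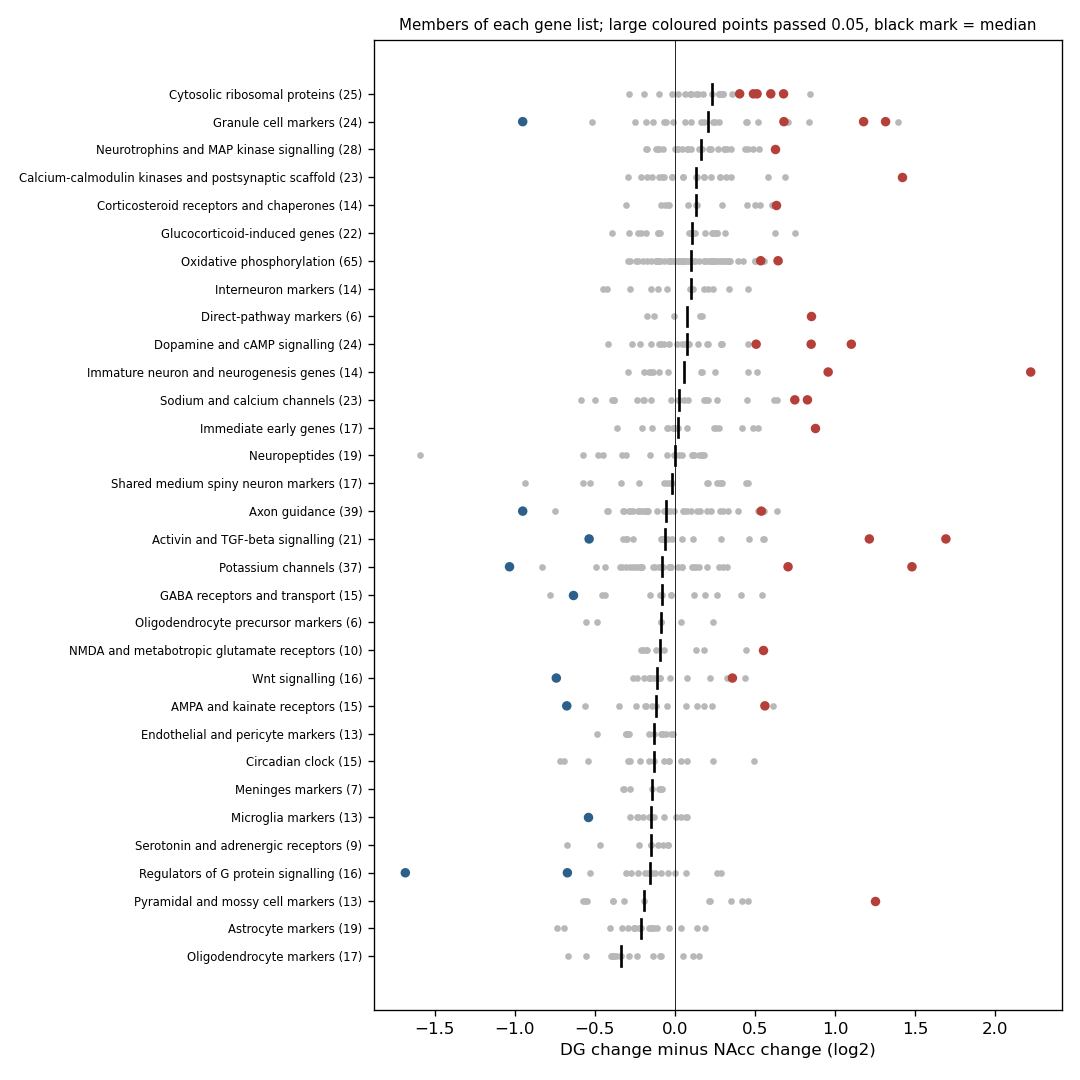
Difference between the DG and the NAcc change (log2) for each tested member of 32 gene lists with 5 or more tested genes (number in brackets). Coloured points passed an adjusted p of 0.05, red more positive and blue more negative in DG, and the black mark is the list median, which lies between −0.34 and 0.23.

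A further contrast set lifetime against early-life overexpression, in the same DG minus NAcc values of 18 animals. The early group had 6 animals. Of 12260 features, 43 (0.351%) passed, and 34 of these were among the 257. The contrasts share the lifetime animals, so they are not independent. Prss23 was 2.82 ± 0.19 higher against early animals (adjusted p = 1.05e-07), Mamdc2 2.42, Blnk 2.35, Car4 2.24, Tbr1 1.88, Inhba 1.65 and Fst 1.39. Rgs13 was at −2.07, Pcdh19 at −1.38 and −1.61, Ptgr1 at −1.50 and Spata13 at −1.06 in the same contrast. All of these passed. For the 2 Pcdh19 features the NAcc medians of early animals were 7.92 and 7.98, above the highest control NAcc array at 7.48. The lowest early NAcc arrays were at 6.76 and 5.79. The DG medians were 10.13 and 10.35 in early and 9.36 and 9.54 in lifetime animals. A raised NAcc median of Pcdh19 was thus not particular to lifetime animals. For Kcnk2 (0.24, adjusted p = 0.828), Islr2 (0.70, adjusted p = 0.627), Pde4b (0.61, adjusted p = 0.6) and Crym (0.73, adjusted p = 0.697) a difference from early animals was not detected with all 18 animals. The NAcc array of early animal 5 stood apart, with a mean correlation of 0.77 with the other NAcc arrays. Without this animal Pde4b (0.91, adjusted p = 0.0134) and Crym (1.26, adjusted p = 0.00867) passed, while Kcnk2 (0.75, adjusted p = 0.0761) and Islr2 (0.55, adjusted p = 0.723) did not. The genes named above as passing also passed without it.

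Early against control animals gave no call for the difference between regions in limma (0.00%), with 2396 features at an unadjusted p under 0.05. This fit held early animal 5, whose NAcc array stood apart. In the same 3-group fit, lifetime against control gave 80 calls with that animal and 436 without it. Early against control without that animal is not reported here. The lack of calls therefore does not show that early animals were without such differences. Without early animal 5, 70 features passed for lifetime against early animals, and with lifetime and early animals fitted alone 16 passed.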

How the data were processed

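Laser-captured DG and NAcc tissue of 6 lifetime GRov and 6 control mice was measured on 24 arrays. The deposited log2 values are the authors' RMA output (version not given), per the submitters' processing notes. Every row is 1 transcript accession of RefSeq, and array brightness over background was not used here. Of 24142 accessions, 5307 repeated another's values and were counted once with it, leaving 18835 features. Accessions were named through RefSeq's gene list for GRCm38.p6; 17260 features had 1 symbol, 29 several and 1546 none.

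Features with a mean at or above the 40th percentile of a region (6.354 in DG, 5.75 in NAcc) in either region were tested, which kept 12260. DG minus NAcc was taken within each animal and fitted with limma 3.58.1 in R 4.3.3 (lmFit, eBayes, two-sided), with Benjamini-Hochberg adjustment over all tested features and a threshold of 0.05. The same features were fitted in each region alone. "Rose", "fell" and "changed" refer to this threshold, SE is limma's standard error and SD the spread between arrays; 6 animals per group limit the precision. Array numbers and Nr3c1 were tested by exact permutation (scipy). Animals were paired across regions because the series design states that areas were collected for each animal. Same-numbered DG and NAcc arrays deviated together with correlations of −0.127 to 0.363 (median 0.171), above 0.1 in 7 of 12 pairs.

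Named genes were Nr3c1, the 20 largest differences in each direction, features also called in NAcc or opposite between regions, up to 4 called members of each list (by size, or else the smallest p) and the 10 smallest p against early animals. In lists a gene counts by its brightest feature. Rps14, Crh, Fkbp5, Tsc22d3, Sgk1, Hspa1b and Ttr fall outside this rule and were chosen after their values were seen. The members and the 38 lists were chosen with earlier results of these data known. Some results are not reported here. The fit was tested on simulated data. Alternatives covered filters, normalization, array range, variance models, pairing, feature choice and left-out animals.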

Additional observations from a re-analysis of the deposited data

Results flagged for a closer look

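In 257 features the lifetime change differed between DG and NAcc by the test of the difference itself. In Pcdh19 both regions changed with opposite signs, giving differences of −1.51 and −1.56 for its 2 features.

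An NAcc array of a lifetime animal numbered 13 has no DG partner and entered no comparison. On it Pcdh19 was at 8.64 and 8.79 by its 2 features, above the highest control NAcc array at 7.48 for both. The transcript without a symbol that rose in NAcc (XM_001473528) was at 6.03 there, against 4.93 to 5.67 in control animals.

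Within a group of 6, 1 sample lay far from the others in 17 of 168 groups tested; chance alone flags about 1 in 20 groups. Lifetime animal 10 accounted for 6 of them. Its DG minus NAcc value was lower than in the other lifetime animals for Iigp1 (2.45), Nefm (1.04), Camk2b (0.35) and Rpl22 (0.63). It was higher for Gabrb2 (1.17) and Crhbp (2.11). In each of these genes its value lay on the side of the control animals. Lifetime animal 9 was low for Trh (−0.70).

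Among control animals, animal 17 was high for Popdc3 (2.25) and Adcy1 (3.14), animal 15 was low for Car4 (0.50) and high for Rgs17 (0.75), and animal 14 was low for Doc2b (0.031) and high for Lhx6 (0.16). Animal 19 was low for Pde4b (−1.999), animal 18 high for Ndufa8 (0.19) and animal 16 low for Errfi1 (0.28). The NAcc array of lifetime animal 8 had the highest median of its group, 6.27 against 6.13 to 6.18 in the others.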

How the results depend on the processing

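For the difference between regions (257 features), the count stayed within 1.5 times under no filter, stricter filters, quantile normalization, median centring, trended or robust variance, 1 feature per gene and all accessions (195 to 329). It moved with scaling to 1 interquartile range (149), the range covariate (33), animal weights (1028), 18 animals in 3 groups (80), a random replicate block (473) and an adjusted p of 0.10 (755). With no replicate block, the regions unpaired, 210 passed. Chosen after seeing the data were 17 animals without early animal 5 (436), no control animals 14 and 16 (54) and no lifetime animals 8 and 10 (711). Leaving out 1 animal gave 98 to 1112 for the difference, 684 to 2573 for DG and 3 to 44 for NAcc, the last without lifetime animal 8. DG had 12 calls with the range covariate, and after median centring 74.9% of its calls were higher instead of 57.8%. NAcc had 1 in the 3-group fit, which also held the early NAcc arrays and the lifetime NAcc array without a DG partner. Lifetime against early animals had 70 without early replicate 5 and 16 alone. Of the 257 features, 82 passed without each animal in turn. No named gene changed direction under any alternative; over all genes and settings 2003 outcomes kept their side of the threshold, 458 lost the call and 23 gained it. The cause of these moves was not tested, except that fits with an animal left out have fewer samples. Probe brightness over background was not used, so low values such as those of Rgs13 in NAcc carry no measured floor.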

Other observations

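Some genes outside the groups above had large differences. Igsf1, an immunoglobulin-type membrane protein, differed by 1.30 ± 0.27 (adjusted p = 0.0247), while its second feature differed by 0.07 (adjusted p = 0.751). The first feature passed in 6 of 12 fits with an animal left out. Opcml, an opioid-binding adhesion molecule, differed by −1.03 ± 0.24 (adjusted p = 0.0361), and Sfmbt2, a Polycomb group protein, by −0.89 ± 0.22 (adjusted p = 0.044). Both fell in DG. Opcml passed in 2 and Sfmbt2 in 4 of 12 fits with an animal left out.

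Of 16 Wnt signalling genes, the receptor Fzd5 was more positive in DG (0.36, adjusted p = 0.0367) and the ligand Wnt2 more negative (−0.74, adjusted p = 0.0137). Over all features 1.46% were more positive and 0.636% more negative. Fzd5 passed in 2 of 12 fits with an animal left out and Wnt2 in all 12. None of 15 circadian clock genes passed in limma; Hlf, a clock-controlled transcription factor, had the smallest p (−0.69, adjusted p = 0.0645) and fell in DG.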
